A study of Canis lupus familiaris with 15 samples.

Results

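The miRNA mir-21 is 1 of 277 miRNAs counted in the small RNA of canine spleens. It was chosen by name: the hairpin mir-21 was read from each of the 15 libraries, with the reads on its mature arms, the reads that match the annotated mature sequence exactly and the reads elsewhere on the hairpin. Tissue came from dogs, 1 spleen and 1 library for each sample, with 5 hemangiosarcoma, 5 nodular hyperplasia and 5 normal spleen samples. Hemangiosarcoma is a malignant tumor of blood vessel lining, and nodular hyperplasia is a benign overgrowth of splenic tissue. Both were masses from pet dogs whose spleens were removed and then classified by histopathology, whereas the normal spleens were archived frozen tissue with normal histology. Neither the labels nor the study's methods name a drug treatment, transgene or cell sorting. The mass groups and the normal group therefore differ in the source of the tissue, and in comparisons with normal spleen disease and source cannot be told apart.

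MiRNAs are short RNAs cut from a hairpin that guide a silencing complex to messenger RNAs with matching sites, whose translation and stability they lower. In human and mouse, mir-21 is known as a growth-promoting miRNA: it restrains PDCD4, an inhibitor of translation, and it is raised in many solid tumors, in inflammation and in fibrosis. It is abundant in many normal tissues too. The gene MIR21 (cfa-mir-21) lies on chromosome 9 in the RefSeq table of the dog assembly UU_Cfam_GSD_1.0. By start position it follows the listed protein-coding gene PTRH2 and precedes TUBD1, and genes that overlap it were not looked for. That assembly is not the one named by the submitters (canFam3), so only the name and the neighbours are given.

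All reads counted as mature for mir-21 were assigned to the 5' arm, and 100% of them were unique to this hairpin, so no close copy shared them. Reads assigned to the mature 3' arm numbered 0 in all 15 libraries. Of the 313 hairpins listed, 166 had mature 5' counts and 134 had mature 3' counts. The counts do not show whether a mature 3' sequence of mir-21 was annotated. If it was not, reads of that arm would be counted as elsewhere on the hairpin. In hemangiosarcoma replicates 1 to 5 the mature counts were 1569772, 560311, 1950862, 722228 and 1236823. In nodular hyperplasia they were 1160897, 908779, 961838, 1321215 and 1326843. In normal spleen they were 300479, 518476, 540808, 472283 and 482888. Averaged over the 15 libraries, mir-21 had 935633 mature counts, second to mir-143, a miRNA of smooth muscle and fibroblasts. By mature count mir-21 ranked first in all 5 nodular hyperplasia libraries and in hemangiosarcoma replicates 3 and 5, and second in the other hemangiosarcoma libraries. It ranked between 2 and 4 in normal spleen. In the 8 libraries where mir-21 was not first, mir-143 was. Each hemangiosarcoma library held 3040736 to 6562849 mature counts, each nodular hyperplasia library 3768867 to 6073162 and each normal spleen library 4374133 to 7548062, so counting error of mir-21 is small beside the spread between spleens.

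As a share of all mature counts of its library, mir-21 was high in both kinds of mass and low in normal spleen. In hemangiosarcoma replicates 1 to 5 the share was 23.9%, 10.98%, 40.6%, 23.8% and 30.1%. In nodular hyperplasia it was 21.8%, 21.5%, 25.5%, 31.8% and 21.8%. In normal spleen it was 4.90%, 7.56%, 7.16%, 7.87% and 11.04%. Hemangiosarcoma thus held both the highest share of a mass and the lowest, and its replicate 2 lay among the normal spleens, while every nodular hyperplasia share lay above every normal spleen share. The mean was 25.9% ± 10.8 in hemangiosarcoma, 24.5% ± 4.42 in nodular hyperplasia and 7.71% ± 2.20 in normal spleen (SD, n = 5 each).

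Hemangiosarcoma exceeded normal spleen by 18.2 percentage points (SE 4.92, n = 5 each; two-sided exact permutation test, p = 0.0159). Nodular hyperplasia exceeded normal spleen by 16.8 percentage points (SE 2.21, n = 5 each; exact permutation p = 0.00794, the smallest that 252 orderings can give). Hemangiosarcoma and nodular hyperplasia differed by 1.38 percentage points (SE 5.21, n = 5 each; exact permutation p = 0.786). After Benjamini-Hochberg adjustment over the 9 permutation tests of share, exact reads and other reads, both exact permutation p-values against normal spleen became 0.0714, which misses the threshold of 0.05. Even at the smallest exact permutation p, 0.00794, 1 comparison of the 9 could not pass unless others were also low. In such bulk tissue, fewer cells that express a miRNA and less of it per cell cannot be told apart.

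**Figure D1:**
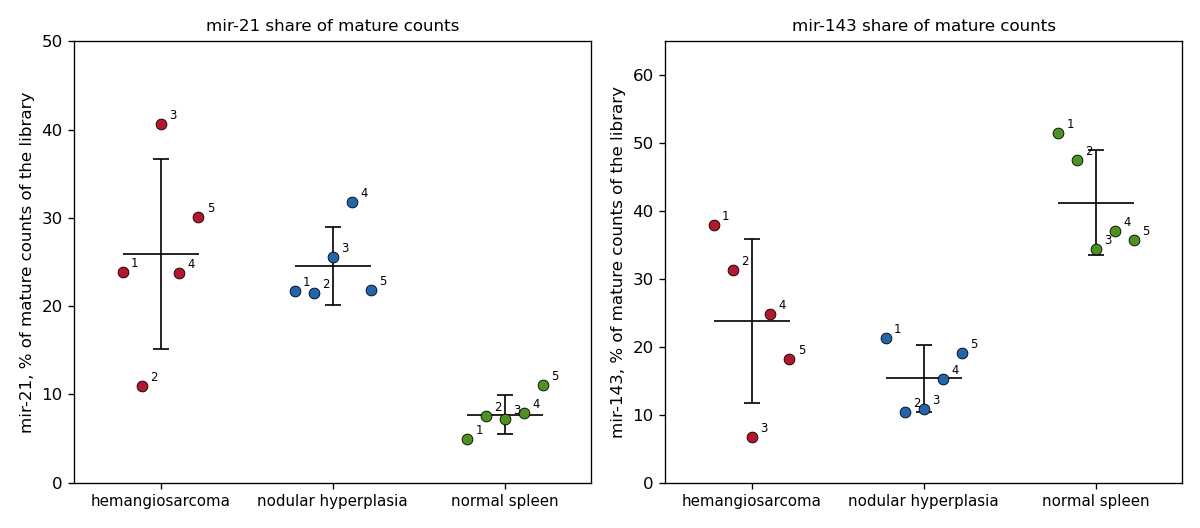
Share of mature counts held by mir-21 (left, % of the library) and by mir-143 (right, % of the library) in each of the 15 libraries, with replicate numbers beside the points, and the mean and SD of each group as a line and bars. The mir-21 share is above 20% in every nodular hyperplasia library and 4.90% to 11.04% in normal spleen, where the mir-143 share is 34.4% to 51.5%.

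A share depends on what else fills the library, and mir-143 took much of it. The mir-143 share was 38.0%, 31.3%, 6.78%, 24.8% and 18.2% in hemangiosarcoma, 21.3%, 10.4%, 10.8%, 15.2% and 19.1% in nodular hyperplasia, and 51.5%, 47.6%, 34.4%, 37.0% and 35.8% in normal spleen. With mir-143 removed from the total, mir-21 made up 38.6%, 16.0%, 43.5%, 31.6% and 36.8% in hemangiosarcoma, 27.6%, 24.0%, 28.6%, 37.5% and 27.0% in nodular hyperplasia, and 10.1%, 14.4%, 10.9%, 12.5% and 17.2% in normal spleen. Nodular hyperplasia still lay wholly above normal spleen, and hemangiosarcoma replicate 2 still lay within the range of normal spleen. The ratio of mir-21 to mir-143 counts was 0.350 to 5.99 in hemangiosarcoma libraries and 1.02 to 2.37 in nodular hyperplasia libraries, against 0.0951 to 0.309 in normal spleen, so on this ratio neither mass group overlapped normal spleen. A ratio to mir-143 also rises where mir-143 itself is low. The mean mir-143 share was 23.8% in hemangiosarcoma and 15.3% in nodular hyperplasia, against 41.2% in normal spleen. How many of all miRNAs separate on this ratio was not counted. Against the summed counts of mir-103, mir-107 and mir-191, miRNAs often used as references, the ratio was 11.7 to 48.9 in hemangiosarcoma libraries and 11.9 to 43.9 in nodular hyperplasia libraries, against 7.93 to 15.1 in normal spleen, and the groups overlapped.

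Levels were next expressed as counts per 1000000 (CPM) of a library size corrected by TMM, a scaling that assumes most miRNAs do not change. In hemangiosarcoma replicates 1 to 5 mir-21 stood at 315348, 82737, 475163, 150592 and 215342 CPM. In nodular hyperplasia it stood at 206570, 132343, 193816, 410131 and 173533 CPM. In normal spleen it stood at 99124, 118009, 74344, 105441 and 104745 CPM. On this scale 4 of 5 hemangiosarcoma libraries and 5 of 5 nodular hyperplasia libraries exceeded the highest normal spleen. The spread was widest in the tumors: the highest library was 5.74 times the lowest in hemangiosarcoma, 3.10 times in nodular hyperplasia and 1.59 times in normal spleen.

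**Figure D2:**
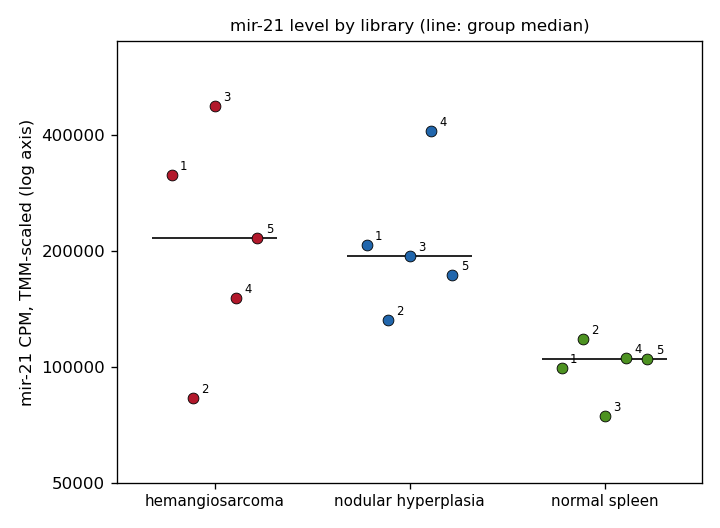
TMM-scaled mir-21 level (CPM, log axis) in each library, with replicate numbers beside the points and a line at the group median. Group medians are 215342 CPM in hemangiosarcoma, 193816 CPM in nodular hyperplasia, against 104745 CPM in normal spleen, and hemangiosarcoma replicate 2 (82737 CPM) lies among the normal spleens.

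Compared to normal spleen, mir-21 was significantly overexpressed in hemangiosarcoma, 2.47-fold (log2 fold change 1.30, SE 0.41, 95% interval 0.45 to 2.16; edgeR quasi-likelihood test, adjusted p = 0.0315 over 250 miRNAs). In this comparison 22.4% of all tested miRNAs passed the threshold, and mir-21 held place 41 by p. Every hemangiosarcoma value lay above every normal spleen value for 6.8% of tested miRNAs, and not for mir-21, whose tumor replicate 2 overlapped. The median log2 fold change of all tested miRNAs was 0.03 with TMM scaling and 0.63 with library totals alone, and mir-21 lay 1.27 and 1.11 above these medians. The call held in 10 of the 15 fits that each left out 1 library and was lost in 5. The adjusted p of edgeR was 0.0542 without hemangiosarcoma replicate 1, and 0.0625, 0.0515, 0.0733 and 0.0570 without normal spleen replicate 1, 2, 3 or 4. Those 5 all left out 1 of the 5 hemangiosarcoma or 5 normal spleen libraries compared. The fits without a nodular hyperplasia library, which is outside this comparison, all kept the call. Without hemangiosarcoma replicate 3, the library highest in mir-21, the log2 fold change was 1.08 (edgeR adjusted p = 0.0498). The call was also lost with limma voom (log2 fold change 1.08, adjusted p = 0.0711) and with the replicate number as a block (1.15, edgeR adjusted p = 0.0973). Replicate numbers did not pair the samples, so that block is arbitrary. An exact permutation test of log2(CPM + 1) chosen after seeing the data lost it too (1.08, adjusted p = 0.0595). That test was adjusted over the 3 comparisons of mir-21 only, not over all tested miRNAs.

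In nodular hyperplasia the level was 2.23 times that of normal spleen (log2 fold change 1.15, SE 0.41, 95% interval 0.30 to 2.01), and the edgeR adjusted p of 0.0699 missed the threshold, where 12.4% of all tested miRNAs passed it. No nodular hyperplasia library overlapped a normal spleen library in CPM. Every nodular hyperplasia value lay above every normal spleen value for 6.4% of tested miRNAs. The median log2 fold change of all tested miRNAs was 0.23 with TMM scaling and 0.81 with library totals, and mir-21 lay 0.93 and 0.86 above it. The call depended on the processing. With library totals in place of TMM the log2 fold change was 1.67 (edgeR adjusted p = 0.00249), and DESeq2 with its own size factors gave 1.11 (adjusted p = 0.0389), both past the threshold. Without nodular hyperplasia replicate 4 it was 0.82 (edgeR adjusted p = 0.164).

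Between the masses, the log2 fold change of hemangiosarcoma over nodular hyperplasia was 0.15 (SE 0.40, 95% interval -0.69 to 0.99; edgeR adjusted p = 0.817), where 18.4% of all tested miRNAs passed. Every hemangiosarcoma value lay above every nodular hyperplasia value for 3.6% of tested miRNAs, and for mir-21 the groups overlapped. As a fold, the interval ran from 0.618 times to 1.99 times the nodular hyperplasia level. Without hemangiosarcoma replicate 3, the library highest in mir-21, the sign turned (log2 fold change -0.08).

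**Figure D3:**
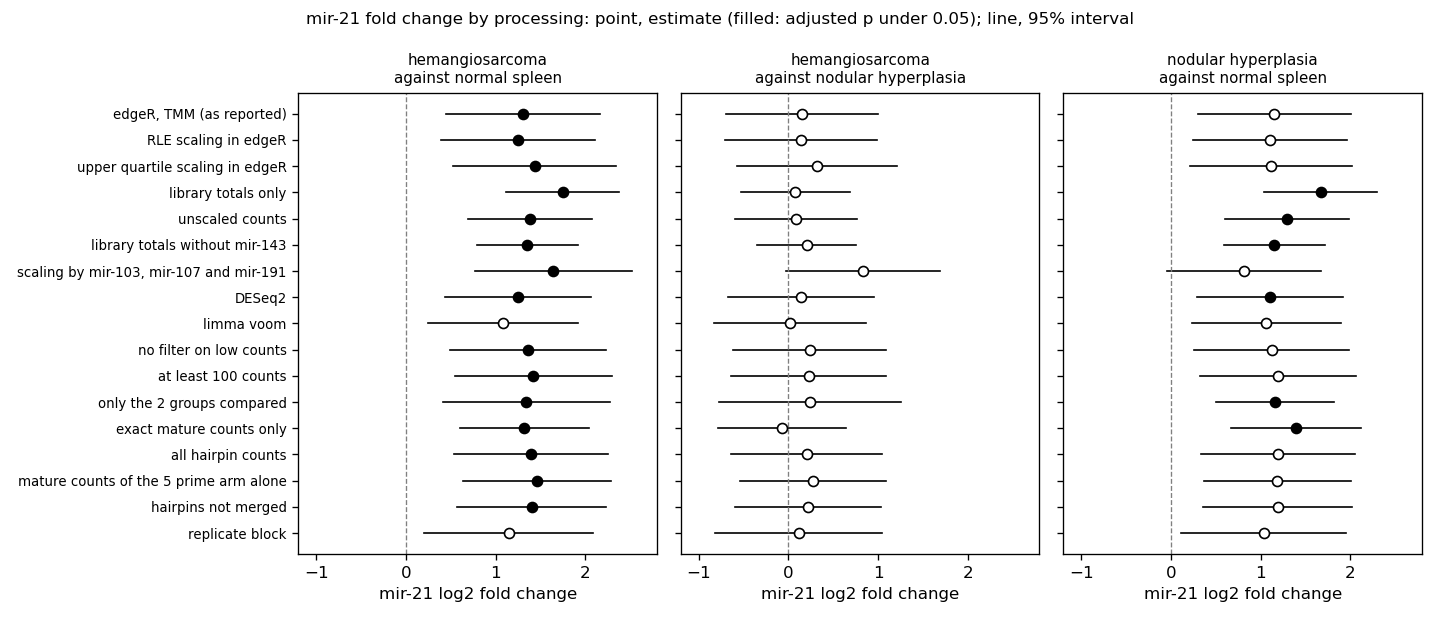
Log2 fold change of mir-21 in the 3 comparisons (panels, x axis) under the processing choices named on the left, with 95% intervals as lines and filled points where the adjusted p was under 0.05. Hemangiosarcoma over normal spleen lies at 1.08 to 1.75, nodular hyperplasia over normal spleen at 0.81 to 1.67, and hemangiosarcoma over nodular hyperplasia at -0.07 to 0.83 with no filled point.

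Markers of cell types, fixed as lists, were summed in each library. The marker of endothelium, mir-126, had 3006 to 13777 CPM in hemangiosarcoma, against 824 to 2536 CPM in nodular hyperplasia and, in normal spleen, 2161 to 2734 CPM. Every hemangiosarcoma library thus lay above all others, and the label of a vascular tumor was not contradicted. Only mature reads are counted here, and 92.3% of the reads on the mir-126 hairpin, pooled over libraries, lay elsewhere on it. Blood cell markers (mir-142, mir-150 and mir-155, 3 of 3 measured) summed to 1782 to 8103 CPM in hemangiosarcoma and 14383 to 30887 CPM in nodular hyperplasia, against 7952 to 13509 CPM in normal spleen. Smooth muscle and fibroblast markers (3 of 4 matched by name) summed to 80554 to 507899 CPM in hemangiosarcoma. Their sums were 65259 to 205981 CPM in nodular hyperplasia, against 344521 to 1049900 CPM in normal spleen. Nearly all of this was mir-143 and mir-145, and the members differed among themselves. The listed mir-199a was not matched by name. An entry mir-199, with a mean of 4261 CPM over the 15 libraries beside 4344 CPM for mir-145, was not part of the sum. In nodular hyperplasia over normal spleen mir-143 (log2 fold change -2.10) and mir-145 (-1.58) fell and mir-214 (0.26) did not pass. In hemangiosarcoma over normal spleen mir-143 fell (-1.43), a call lost in 5 of 6 other scalings, and mir-145 (-0.74) and mir-214 (0.20) did not pass. Striated muscle markers (2 of 2) summed to 398 to 5178 CPM in hemangiosarcoma and 76.9 to 2002 CPM in nodular hyperplasia, against 4686 to 14172 CPM in normal spleen. Both fell in nodular hyperplasia over normal spleen (mir-1 -3.30, mir-133a -2.49), and neither passed in hemangiosarcoma over normal spleen (mir-1 -1.94, mir-133a -0.46). Red cell markers (2 of 3 measured) summed to 15549 to 53992 CPM in hemangiosarcoma and 22474 to 88112 CPM in nodular hyperplasia, against 44614 to 151082 CPM in normal spleen. Of these, in hemangiosarcoma over normal spleen mir-451 fell with TMM scaling (log2 fold change -1.35, edgeR adjusted p = 0.0332) and mir-144 (-0.46) did not pass. Lower calls in this comparison depended on the scaling: 8.8% of all tested miRNAs with TMM and 0.4% with library totals. The value of mir-451 under other scalings is not given here. The myeloid marker mir-223 had 73.3 to 286 CPM in hemangiosarcoma and 54.3 to 552 CPM in nodular hyperplasia, against 77.9 to 237 CPM in normal spleen, and passed in none of the 3 comparisons. Epithelial markers (5 of 6 passed the count minimum, with mir-200a and mir-429 at 0 in some libraries) reached 3491 CPM in hemangiosarcoma replicate 3, the library highest in mir-21, nearly all of it mir-375, and were otherwise low, with medians of 11.9 CPM in hemangiosarcoma and 26.4 CPM in nodular hyperplasia, against 13.2 CPM in normal spleen. The part of these cell types in the mir-21 levels was not tested.

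Most mir-21 reads were variants of the annotated mature sequence. Reads that match it exactly made up 11.9%, 18.7%, 9.65%, 15.5% and 17.8% of mir-21 mature counts in hemangiosarcoma, 14.2%, 18.4%, 22.5%, 15.1% and 11.6% in nodular hyperplasia, and 11.4%, 9.68%, 18.8%, 13.7% and 17.2% in normal spleen. The 3 groups overlapped almost fully, with means of 14.7% ± 3.88 in hemangiosarcoma, 16.3% ± 4.24 in nodular hyperplasia and 14.2% ± 3.83 in normal spleen (SD, n = 5 each). Differences were 0.57 percentage points for hemangiosarcoma over normal spleen (SE 2.44), -1.62 for hemangiosarcoma over nodular hyperplasia (SE 2.57) and 2.19 for nodular hyperplasia over normal spleen (SE 2.56), with exact permutation p-values of 0.817, 0.556 and 0.405. Pooled over libraries, 14.6% of mir-21 mature reads were exact, against a median of 35.1% over the 103 miRNAs with a mean of at least 1000 mature counts, 20 of which were lower than mir-21. Which ends or bases differ in the other reads is not given by the counts.

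Reads elsewhere on the hairpin, which may include reads of the 3' arm, were few. In counts there were 21666, 9949, 28897, 8004 and 12540 in hemangiosarcoma, 21567, 16114, 16106, 20151 and 22661 in nodular hyperplasia, and 5256, 7696, 10147, 7978 and 8710 in normal spleen. As a share of the reads on the mir-21 hairpin this was 1.36%, 1.74%, 1.46%, 1.10% and 1.00% in hemangiosarcoma, 1.82%, 1.74%, 1.65%, 1.502% and 1.68% in nodular hyperplasia, and 1.72%, 1.46%, 1.84%, 1.66% and 1.77% in normal spleen. Hemangiosarcoma replicates 4 and 5 had the lowest shares of all 15. The mean was 1.33% ± 0.296 in hemangiosarcoma, 1.68% ± 0.120 in nodular hyperplasia and 1.69% ± 0.144 in normal spleen (SD, n = 5 each). The difference of hemangiosarcoma from normal spleen was -0.36 percentage points (SE 0.147, n = 5 each; exact permutation p = 0.0476, adjusted p = 0.125 over the 9 tests). That from nodular hyperplasia was -0.35 percentage points (SE 0.143, n = 5 each; exact permutation p = 0.0556, adjusted p = 0.125). Neither passed the threshold. Nodular hyperplasia differed from normal spleen by -0.01 percentage points (SE 0.0838, n = 5 each; exact permutation p = 0.873).

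**Figure D4:**
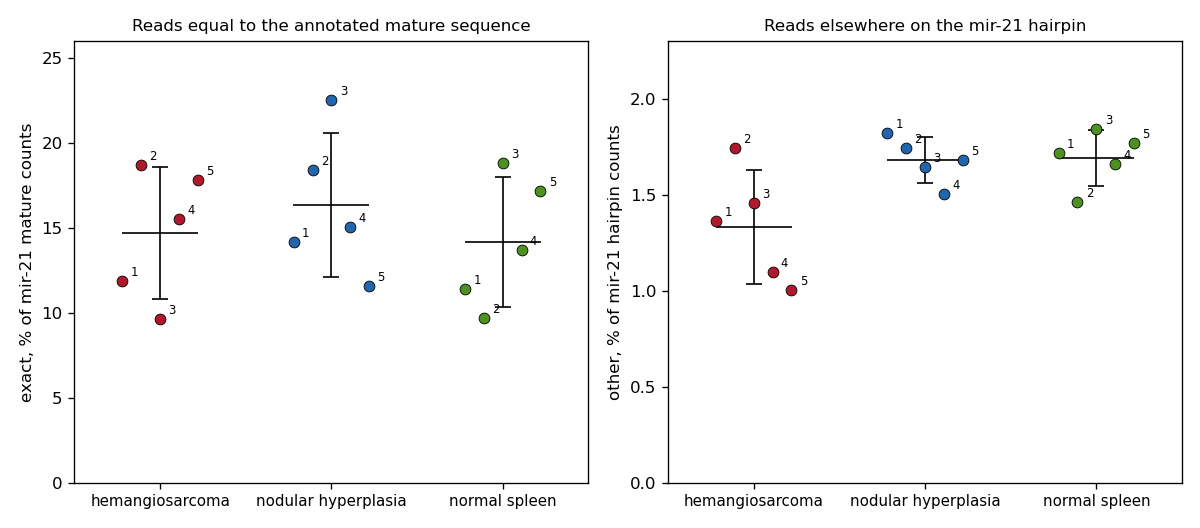
Share of mir-21 mature counts that match the annotated sequence exactly (left, %) and share of mir-21 hairpin counts that lie elsewhere on the hairpin (right, %) in each library, with replicate numbers, and the mean and SD of each group as a line and bars. Exact shares lie between 9.65% and 22.5% with the groups intermixed, and the shares elsewhere on the hairpin lie between 1.00% and 1.84%, lowest in hemangiosarcoma replicates 4 and 5.

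Over the rest of each library, leaving mir-21 out, reads elsewhere on the hairpin were more frequent. They made up 9.73%, 10.2%, 25.4%, 27.8% and 22.0% of those hairpin reads in hemangiosarcoma replicates 1 to 5, against 7.08% to 13.01% in nodular hyperplasia and, in normal spleen, 4.98% to 9.05%. Hemangiosarcoma replicates 3, 4 and 5 were thus the highest of all 15 libraries on this measure, whereas replicates 4 and 5 were the lowest in the share for mir-21 alone. The value over the rest of a library pools many hairpins, so it also changes with which of them are abundant. For mir-126, highest in hemangiosarcoma, 92.3% of hairpin reads lay elsewhere. The part of mir-126 in these values was not tested. For mir-21 the pooled share was 1.53%, against a median of 4.62% over the 103 abundant miRNAs, 18 of which were lower. When the share of mir-21 was taken of all hairpin reads instead of mature reads, the mean of hemangiosarcoma minus that of nodular hyperplasia was -0.91 percentage points.

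Growth-promoting miRNAs known from tumors of human and mouse, in a list that includes mir-21 itself, were called in both directions with TMM scaling. Of 18 growth-promoting miRNAs listed, all tested, 3 were higher in hemangiosarcoma than in normal spleen and 2 were lower (all miRNAs: 13.6% higher, 8.8% lower), with a median log2 fold change of 0.05 beside 0.03 for all tested miRNAs. The split by direction depended on the scaling. With library totals 4 of the 18 were higher and 0 lower (all miRNAs: 18.4% higher, 0.4% lower), and with the reference miRNAs 5 were higher and 0 lower (all miRNAs: 22.8% higher, 1.2% lower). Beside mir-21, mir-221, which restrains the cell cycle inhibitor p27, rose by 1.36 on the log2 scale (SE 0.40; adjusted p = 0.0245 in edgeR), and mir-210, which is induced by hypoxia, by 1.76 (SE 0.55; adjusted p = 0.0306 in edgeR). The fall of mir-155, a miRNA of activated lymphocytes (-1.24), and of mir-25 (-0.72) did not pass with library totals, and with unscaled counts mir-221 (edgeR adjusted p = 0.0537) and mir-210 (edgeR adjusted p = 0.0719) did not pass. Of the 15 fits that each left out 1 library, 3 ended the call of mir-221, 6 that of mir-210, 3 that of mir-155 and 14 that of mir-25. Here and below, the 15 fits include those that left out a library of the group not compared. Between hemangiosarcoma and nodular hyperplasia 1 listed miRNA was higher (mir-10b, 2.37) and 4 were lower (all miRNAs: 10.4% higher, 8% lower): mir-155 (-2.24), mir-182 (-1.56), mir-183 (-1.55) and mir-19b (-0.71), of which only mir-155 passed with library totals as well. Leaving out 1 library ended the call of mir-182 in 5 of 15 fits, of mir-183 in 7 and of mir-19b in 13, and of mir-10b and mir-155 in 0. The median was -0.19, beside -0.07 for all. When the reference miRNAs set the scale, mir-19b changed sign and 6 of the 18 were higher and 1 lower (all miRNAs: 41.6% higher, 2% lower), with a median of 0.58 beside 0.77 for all tested miRNAs.

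In nodular hyperplasia compared to normal spleen, 3 of the 18 were higher and 1 was lower (all miRNAs: 5.6% higher, 6.8% lower). They were mir-96 (log2 fold change 2.40), mir-182 (1.55) and mir-183 (1.51), which are cut from 1 transcript, and mir-10b (-1.97). Leaving out 1 library ended the call of mir-96 in 1 of 15 fits, of mir-182 in 8, of mir-183 in 7 and of mir-10b in 4, scaling by the reference miRNAs ended those of mir-182 and mir-183, and upper quartile scaling that of mir-183. The median was 0.54, beside 0.23 for all tested miRNAs. With library totals 8 of the 18 were higher, mir-21 among them, and 1 was lower (all miRNAs: 18% higher, 2.4% lower), and the median of all tested miRNAs was 0.81.

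Over the 15 libraries, mir-27a had the pattern most like that of mir-21 among the 116 miRNAs with a mean of at least 100 CPM (Pearson r = 0.82 and Spearman rho = 0.81 of log2(CPM + 1)). In hemangiosarcoma replicates 1 to 5 its level was 3735, 3157, 8895, 4013 and 5945 CPM. It was 5914, 3417, 4340, 5457 and 4582 CPM in nodular hyperplasia, and 2483, 2384, 3184, 2897 and 2995 CPM in normal spleen. As for mir-21, its highest library was hemangiosarcoma replicate 3. Its nodular hyperplasia libraries (lowest 3417 CPM) lay above normal spleen (highest 3184 CPM), as they did for 6.4% of all tested miRNAs. Mir-27a was chosen by its likeness to mir-21 over these same libraries, so neither trait is separate support. Its log2 fold change over normal spleen was 0.88 in hemangiosarcoma (SE 0.27) and 0.77 in nodular hyperplasia, given without a test, since likeness over all 15 libraries already includes the difference between groups.

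By Pearson r, the next in likeness were mir-185 (Pearson r = 0.72, Spearman rho = 0.61), mir-22 (0.67 and 0.63), mir-542 (0.67 and 0.77) and mir-222 (0.66 and 0.57). By Spearman rho, mir-27a came first and mir-542 second, but mir-22 was in place 8, mir-185 in 9 and mir-222 in 13, behind mir-210 (0.73), mir-450a (0.69) and mir-221 (0.68) among others. Mir-22 stood at 10699 to 13939 CPM in hemangiosarcoma and 7254 to 17158 CPM in nodular hyperplasia, against 5944 to 7637 CPM in normal spleen. These correlations describe 15 libraries that share their groups and scaling. Without the 2 libraries farthest from the median of mir-21, hemangiosarcoma replicate 3 and nodular hyperplasia replicate 4, Pearson r was 0.69 for mir-27a, 0.60 for mir-22 and 0.55 for mir-542, but 0.41 for mir-185 and 0.25 for mir-222. With group means removed, r was 0.67 for mir-27a, 0.71 for mir-185, 0.45 for mir-22, 0.63 for mir-542 and 0.54 for mir-222. On that measure mir-103 and mir-10b (both 0.75) came first and mir-27a was in place 6, so its first place over all libraries included the difference between groups. These miRNAs outside the first 5 were named after their values were seen.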

How the data were processed

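The deposited values are raw counts of reads per hairpin and library, made by the authors with adapter trimming, removal of reads shorter than 15 nucleotides and of low quality, a check in FastQC, and assignment to canine hairpins of miRBase release 20 in CLCbio. Among the submitters' processing notes, canFam3 is the build and FastQC a tool, with versions of FastQC and CLCbio not given in the sources used here. For each hairpin the mature reads of the 5' and 3' arm were summed, and copies that give the same mature miRNA were merged. No 2 libraries of a group were copies of each other (among 30 pairs, the chi-square was at least 638 per degree of freedom). No date or batch of sequencing is given in the labels, so no within-batch value could be computed.

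The 250 of 263 miRNAs that reached 10 counts in total were fitted in 1 model of 3 groups with the quasi-likelihood test of edgeR 4.0.16 (R 4.3.3) after TMM scaling. Benjamini-Hochberg adjustment ran over all tested miRNAs of a comparison, and calls needed an adjusted p under 0.05. Shares were compared by exact permutation of samples, two-sided, adjusted over 9 tests. The added permutation test of log2(CPM + 1) was adjusted over the 3 comparisons of mir-21 only. The edgeR fit was tested on simulated data, for hemangiosarcoma against normal spleen only. The permutation tests and the other methods were not tested in this way. DESeq2 1.42.0, limma 3.58.1, matplotlib 3.10.9, scipy 1.17.1, pandas 2.3.3, numpy 2.4.6 and Python 3.11.15 were also used. Alternatives were other scalings, filters, tests and kinds of count, a replicate block and leaving out each library.

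The miRNAs named are mir-21, the 5 most like it, the reference miRNAs and mir-143, and members of the list of growth-promoting miRNAs as examples. MiRNAs with the same seed as mir-21 were also to be named, and are not analysed here. The members, that list of 18 and the tests were chosen with earlier results of these data known. Another list is not reported here.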

Additional observations from a re-analysis of the deposited data

Results flagged for a closer look

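The mir-21 level of nodular hyperplasia replicate 4 was 410131 CPM, far from the other 4 of its group, of which the nearest was 206570 CPM. On CPM the gap came to 0.733 of the range of the group, above Dixon's limit of 0.71 for 5 samples. On log2(CPM + 1) this library stood at 18.65, the nearest at 17.66 and the lowest at 17.01, a gap below that limit. In all, 15 sets of 5 values were checked, and chance marks about 1 in 20. Its share of mature counts, 31.8%, was also the highest of its group, and its TMM factor, 0.776, the lowest, so that scaling widened the gap. Without this library the log2 fold change of nodular hyperplasia over normal spleen was 0.82.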

How the results depend on the processing

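The log2 fold change of mir-21 in hemangiosarcoma over normal spleen stayed past the threshold in 14 of 17 other settings (1.08 to 1.75) and failed with limma voom (1.08, adjusted p = 0.0711), with the replicate block (1.15, adjusted p = 0.0973) and with an exact permutation test of log2(CPM + 1) chosen after seeing the data (1.08, adjusted p = 0.0595); without 1 library it was 1.08 to 1.53. Nodular hyperplasia over normal spleen passed in edgeR with library totals (1.67), unscaled counts (1.29) and library totals without mir-143 (1.15). It also passed in edgeR with only the 2 groups compared (1.16) and exact reads only (1.39), and in DESeq2 (1.11). The added permutation test (1.06) passed as well, but was adjusted over the 3 comparisons of mir-21 only, not over all tested miRNAs. Without 1 library the log2 fold change was 0.82 to 1.29, passing without hemangiosarcoma replicate 2 or 3. Scaling by mir-103, mir-107 and mir-191 gave 0.81. Hemangiosarcoma over nodular hyperplasia passed in none of these and turned sign with exact reads only (-0.0726), with a range of -0.0836 to 0.49 without 1 library.

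For the share of mature counts, hemangiosarcoma over nodular hyperplasia turned sign with all hairpin counts (-0.91 percentage points) and on the log2 scale (-0.0248), with -2.31 to 5.10 percentage points without 1 library, against 14.5 to 21.9 for hemangiosarcoma and 14.95 to 17.6 for nodular hyperplasia over normal spleen. For the exact share, the difference in medians between the masses was 0.48, and without 1 library hemangiosarcoma over normal spleen was -0.55 to 1.83. For reads elsewhere on the hairpin these ranges were -0.46 to -0.28 for hemangiosarcoma over normal spleen and -0.45 to -0.26 over nodular hyperplasia (both adjusted p = 0.0357 in the exact permutation test without hemangiosarcoma replicate 2), and -0.0695 to 0.0318 for nodular hyperplasia over normal spleen. The causes were not tested.

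The number of miRNAs called in hemangiosarcoma over normal spleen, 56, was 24 with unscaled counts and 35 with the 5' arm alone (36 to 61 without 1 library). Over nodular hyperplasia, 46 became 22 with library totals, 22 with only the 2 groups, 109 with the reference miRNAs and 29 with the replicate block (26 to 60). For nodular hyperplasia over normal spleen, 31 became 51 with library totals, 16 unscaled, 57 in DESeq2, 56 with only the 2 groups and 15 with the 5' arm alone (4 to 46, the lowest without normal spleen replicate 2).

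Replicate numbers did not pair the samples: deviations of same-numbered samples correlated at -0.33 to 0.32, and 5, 2 and 1 of 10 samples correlated best with their own number. With the replicate block mir-21 also gave 0.11 and 1.03 in the other comparisons, and a sign-flip test of shares over 5 pairs cannot go below p = 0.0625 (exact). Counting error at this depth is small beside the spread between spleens.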
